A study of Mus musculus with 9 samples.

Results

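Claudins and occludin are the membrane proteins that build the tight junction strand. The 10 genes described here, Cldn1, Cldn2, Cldn3, Cldn4, Cldn5, Cldn6, Cldn7, Cldn12, Cldn14 and Ocln, were taken by symbol from the 55401 genes of the deposited count table. RNA was sequenced from whole livers of 9 female FVB/N mice, 3 in each of 3 groups (1 label field gives the strain as C57BL/6). Healthy livers came from mice with no oncogenes, no hydrodynamic injection and no virus, and their age is not given in the sources used here. Untreated HCC livers came from mice given RAS and AKT plasmids with the Sleeping Beauty transposase by hydrodynamic tail vein injection at 6 weeks of age, a blank AAV8 at week 1, and harvest at week 5. The miR-22-treated HCC livers had the same oncogenes and timing, with AAV8-miR-22 at a labelled dose of 1 trillion genome copies per kg in place of the blank virus. The methods of the study give a higher dose than the labels, and which was used is not settled here. Healthy livers therefore differ from untreated HCC by oncogenes, injection and virus together, and these cannot be told apart. The study reports a lower liver-to-body weight ratio and less tumor with miR-22 treatment. The HCC groups may thus differ in the share of tumor tissue, which cannot be told apart from changes within tumor cells. The plasmid names carry EF1α and CAG-type promoters, which are not restricted to hepatocytes. Labels name each liver as a separate sample but do not say how pieces of tumor and surrounding liver were chosen.

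Tight junctions close the space between neighboring epithelial cells. In the liver they line the bile canaliculus between hepatocytes and the lumen of the bile ducts, and keep bile out of the blood. Claudins decide which ions pass between the cells: some seal and others form pores. Occludin belongs to the MARVEL family and joins the claudin strands, while zonula occludens scaffolds such as Tjp1 and Tjp3 tie them to actin. Both Cldn1 and Ocln are also known as entry factors of hepatitis C virus in human hepatocytes.

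Total counts per liver ranged from 16664659 to 23908392, and values below are in counts-per-million units (CPM) scaled by edgeR's trimmed mean of M values (TMM). The scaling factors differed by group, at 0.865 to 0.872 in healthy liver, 0.942 to 1.03 with miR-22 treatment and 1.12 to 1.22 in untreated HCC. Fold changes between groups depend on this scaling, and scaling by total counts alone was not tested. Akt1 (105 ± 2.96 CPM in healthy liver, 1486 ± 275 in untreated HCC and 858 ± 223 in miR-22-treated HCC, SD, n = 3) and Nras (28.6 ± 1.51, 69.9 ± 7.02 and 54.6 ± 1.09) followed the labels. Reads of the injected oncogenes and of the mouse genes were not separated. Hepatocyte markers were present in all livers, at a summed level of 158415 to 166604 CPM in healthy liver, 115767 to 132295 with miR-22 treatment and 87767 to 103749 in untreated HCC. The miR-22-treated HCC replicate 2 stood apart by pancreatic acinar RNA, with 470 CPM summed over 10 acinar markers against 20.02 to 44.8 in the other 8 livers. Without it, 7 of the 10 genes described here were called in untreated HCC against healthy liver, 2 with miR-22 against untreated HCC and 3 with miR-22 against healthy liver, compared with 7, 2 and 2 in all livers. In whole tissue, fewer cells of a type and less RNA per cell cannot be told apart.

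Because miR-22 was the treatment, the mature miRNA and its seed matches among the 10 genes are shown first. The seed (bases 2 to 8, in capitals) pairs with the letters GGCAGCT in a transcript. Searching the 3′ UTR of 1 canonical transcript per gene (GENCODE, GRCm39) found a match in 2 of the 10, Cldn5 and Cldn12, against 13.5% of 21593 coding transcripts. The match (capitals) is printed with its flanks on the strand of the transcript, at chr16:18596758-18596786 (+) for Cldn5 and chr5:5555891-5555919 (-) for Cldn12. The miRNA sequence is from RefSeq.
mmu-miR-22-3p: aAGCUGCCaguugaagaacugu
Cldn5 site: taacctgaaagGGCAGCTggagaaacccc
Cldn12 site: tccaagacagtGGCAGCTcgaattctgag
A match is a description of letters and not a measured binding site. As given below, neither gene was lower in miR-22-treated than in untreated HCC: the log2 fold changes of Cldn5 and Cldn12 were 0.31 and 0.38.

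Promoters were read in RefSeq windows of GRCm38.p6 from 250 bases before to 50 after each annotated start, 16 windows for the 10 genes. The E-box CACCTG (either strand, CAGGTG on the other), which Snail and Zeb repressors are known to bind, was in 7 of the 16 windows, from 6 genes, and in 20.2% of 32851 mouse promoters. The 6 genes were Cldn3, Cldn4, Cldn6, Cldn7, Cldn14 and Ocln. Among them Ocln fell in untreated HCC, and Cldn3 and Cldn14 were not called. The GC box GGGCGG (either strand) was in 10 windows, from 8 genes, and in 35.7% of promoters. TATAAA (either strand) was found in 1 window, that of Cldn2, and in 13.6% of promoters. The last 100 bases before the start are shown for 3 genes that were higher in untreated HCC, with these motifs in capitals, at chrX:139800708-139800807 (+), chr5:134946935-134947034 (-) and chr17:23679265-23679364 (+).
Cldn2: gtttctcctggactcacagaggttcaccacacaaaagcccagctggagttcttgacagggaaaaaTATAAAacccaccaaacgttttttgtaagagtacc
Cldn4: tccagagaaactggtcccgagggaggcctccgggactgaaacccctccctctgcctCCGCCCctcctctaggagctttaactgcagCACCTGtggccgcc
Cldn6: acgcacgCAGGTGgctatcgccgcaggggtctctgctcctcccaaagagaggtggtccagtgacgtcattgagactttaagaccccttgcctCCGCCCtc
Cldn2 holds the TATA letters and no GC box, and Cldn4 and Cldn6 hold an E-box and a GC box but no TATAAA.

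Per kilobase of transcript, the only scale on which genes are compared here, Cldn3 was the most abundant of the 10 in every group. Its mean was 61.4 CPM per kb in healthy liver, 65.9 in untreated HCC and 54.4 in miR-22-treated HCC. In healthy liver Cldn2 (27.2), Cldn1 (26.3) and Cldn12 (22.3) came next, then Cldn14 (12.9), Cldn5 (6.84) and Ocln (5.33). Cldn2 and Cldn1 overlapped there from liver to liver. Cldn7, Cldn6 and Cldn4 were at 0.230, 0.1001 and 0.0332 CPM per kb, close to the limit of detection. In untreated HCC Cldn2 was still next, at 48.7 CPM per kb against 26.9 for Cldn1, while Cldn12, at 11.9, was beside Cldn14, at 12.6. In miR-22-treated HCC Cldn2 was at 34.3, Cldn1 at 29.3, Cldn12 at 15.6 and Cldn14 at 11.1 CPM per kb.

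A total of 15717 genes passed the filter on low counts and entered edgeR's quasi-likelihood test, fitted to all 9 livers. A gene was called when its Benjamini-Hochberg adjusted p was under 0.05 and its fold change over 1.5. Between untreated HCC and healthy liver, 7 of the 10 genes were called, beside 40.8% of all genes tested. Cldn2, Cldn4, Cldn6 and Cldn7 rose, where 22.7% of all genes did, and Cldn5, Cldn12 and Ocln fell, where 18.1% did. Cldn4 passed the filter only through the untreated HCC livers, and Cldn6 and Cldn7 only through HCC livers, so these 3 had to differ and their calls do not count as support. Of the 7 genes above the filter in every liver, 4 were called. The median log2 fold change of the 10 was 0.07, and that of all genes 0.01. The summed level of the 10 genes was 399.8 to 462.6 CPM in healthy liver, 389 to 447 with miR-22 treatment and 414 to 448 in untreated HCC. The sums overlapped, although some single genes rose or fell in untreated HCC, while Cldn1, Cldn3 and Cldn14 were not called.

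**Figure D1:**
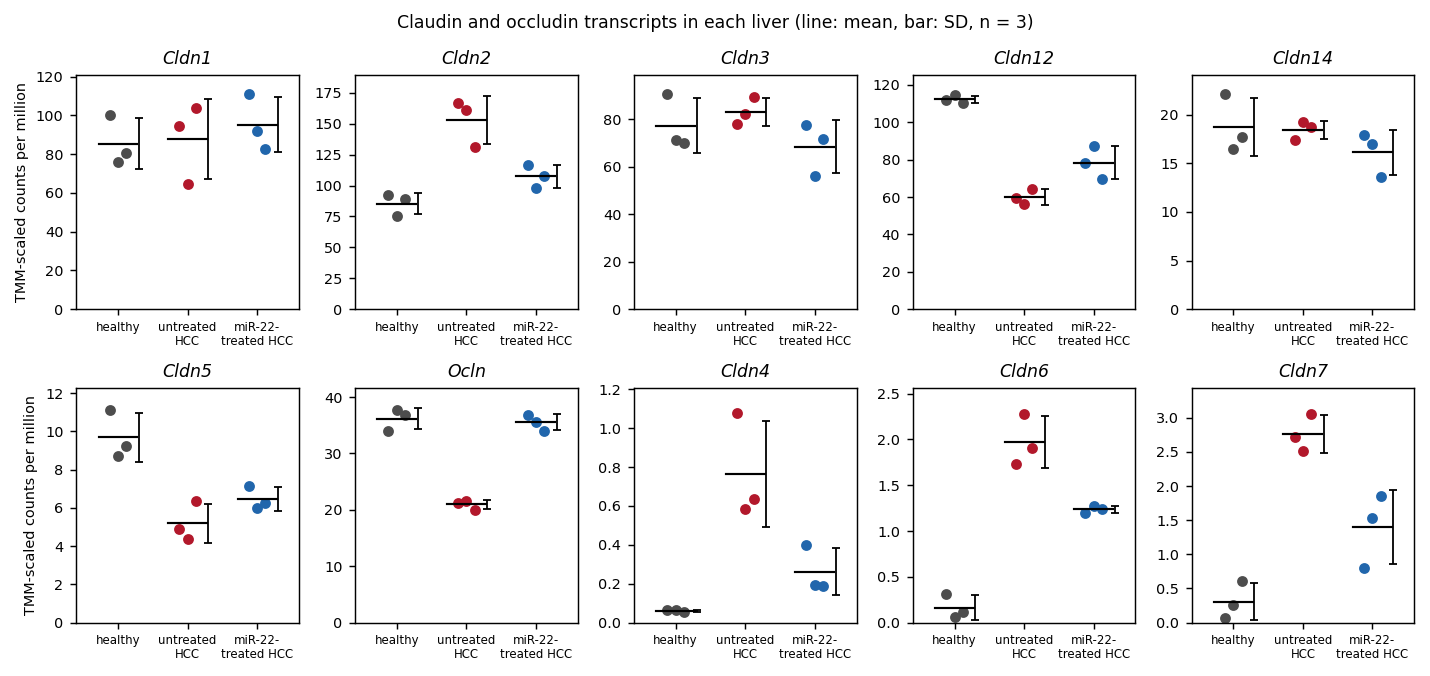
Level of each of the 10 genes (vertical axis, TMM-scaled CPM, from 0) in each of the 9 livers, by group (horizontal axis). Points are livers, lines the group means and bars the SD (n = 3). Ocln in the 3 untreated HCC livers (20.02 to 21.6) sits below all other livers, Cldn2 is highest in untreated HCC, and Cldn4, Cldn6 and Cldn7 are near 0 in healthy liver.

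Cldn2 forms pores for small cations and water. It lies on the X chromosome (ENSMUSG00000047230, chrX:138701480-138712135, +, GRCm39). Its level was 92.1, 75.4 and 88.8 CPM in the healthy livers, 167, 161 and 131 in untreated HCC, and 117, 98.0 and 108 in miR-22-treated HCC. The 3 groups did not overlap, with untreated HCC highest and miR-22-treated HCC between. Untreated HCC exceeded healthy liver by 1.79-fold (log2 0.84, SE 0.117, edgeR adjusted p = 5.29e-05), in all 18 other settings as well. With miR-22 treatment against none, the log2 fold change was -0.51 (SE 0.116, edgeR adjusted p = 0.00785), a fold of 0.703 that did not pass the 1.5-fold threshold. Leaving out untreated HCC replicate 4, its lowest liver, gave -0.61 and a call (edgeR adjusted p = 0.00246). Against healthy liver, miR-22-treated HCC was 1.26-fold higher (edgeR adjusted p = 0.0411), also short of the fold threshold.

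Occludin, the only member outside the claudin family, was low in untreated HCC alone. Ocln (ENSMUSG00000021638, chr13:100630334-100689535, -) was at 34.0, 37.6 and 36.8 CPM in healthy liver. It was at 21.2, 21.6 and 20.02 CPM in untreated HCC and at 36.9, 35.6 and 34.0 in miR-22-treated HCC. The untreated HCC livers lay below every other liver, while healthy and miR-22-treated livers overlapped. Ocln fell in untreated HCC by 0.79 on the log2 scale (SE 0.0884, edgeR adjusted p = 9.05e-06). It was 1.70-fold higher in miR-22-treated than in untreated HCC (log2 0.76, SE 0.0882, edgeR adjusted p = 0.000209). That call was lost only when the fold was tested against 1.5 itself (glmTreat, adjusted p = 0.159), and the log2 value stayed between 0.72 and 0.79 in the 18 other settings. Between miR-22-treated HCC and healthy liver the log2 difference was -0.03, with a 95% interval from -0.21 to 0.16. The untreated livers are shared by the first of these comparisons and the second, so a value at one extreme in these 3 livers moves both.

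Cldn12 is a claudin without the usual PDZ-binding tail, known from calcium transport (ENSMUSG00000046798, chr5:5539537-5564995, -). Its level was 112, 114 and 110.3 CPM in healthy liver, 59.5, 56.3 and 64.3 in untreated HCC, and 78.0, 87.2 and 69.8 in miR-22-treated HCC. None of the 3 groups overlapped. Cldn12 fell in untreated HCC to 0.535 of the healthy level (log2 -0.90, SE 0.0949, edgeR adjusted p = 5.18e-06). The miR-22-treated livers were 1.30-fold above the untreated ones (log2 0.38, SE 0.0947, edgeR adjusted p = 0.012) and at 0.698 of the healthy level (log2 -0.52, edgeR adjusted p = 0.00106), both short of the fold threshold. Without miR-22-treated HCC replicate 3 the last difference was -0.60 and called.

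Cldn5 is the claudin of endothelial cells (ENSMUSG00000041378, chr16:18595597-18597012, +). Healthy livers had 11.1, 8.69 and 9.23 CPM, untreated HCC 4.87, 4.39 and 6.35, and miR-22-treated HCC 7.15, 5.99 and 6.23. Healthy livers were above all HCC livers, and the HCC groups overlapped. The fall in untreated HCC was to 0.539 of healthy liver (log2 -0.89, SE 0.181, edgeR adjusted p = 0.00103), lost only with glmTreat (adjusted p = 0.0559). From untreated to miR-22-treated HCC the log2 difference was 0.31, with a 95% interval from -0.09 to 0.70 (edgeR adjusted p = 0.252). Against healthy liver, miR-22-treated HCC was at 0.667 (edgeR adjusted p = 0.024), just short of the threshold of 1.5-fold. This difference was called with no fold threshold, with DESeq2's size factors, with DESeq2, with the 2 groups alone, and without healthy liver replicate 2 or 3 or miR-22-treated HCC replicate 2.

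The summed level of 12 endothelial markers was 409 to 498 CPM in healthy liver, 366 to 448 with miR-22 treatment and 284 to 350 in untreated HCC. In untreated HCC against healthy liver, 2 of the 12 rose (Cd34 and Emcn) and 4 fell (Kdr, Tek, Stab2 and Clec4g), while Pecam1 and Cdh5, at log2 0.13 and 0.06, did not pass. The 6 are 50% of the list, beside 40.8% of all genes. None of the 12 was at 0. In miR-22-treated against untreated HCC 1 of them, Clec4g, rose (8.33% beside 13.8%). The share of these cells in the Cldn5 result was not tested.

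Cldn4, Cldn6 and Cldn7 were barely detected in healthy liver, and by the filter limit given above their rises over it had to appear. Cldn4, a sealing claudin of simple epithelia (ENSMUSG00000047501, chr5:134973973-134975788, -), had 1, 1 and 1 counts in the healthy livers, 23, 13 and 17 in untreated HCC, and 7, 3 and 4 in miR-22-treated HCC. The 3 groups did not overlap. With 53 against 3 counts, the ratio of untreated HCC to healthy liver was 12.5, with a 95% interval of 4.06 to 62.7 that covers counting error only (edgeR adjusted p = 0.000561). For miR-22-treated HCC, 14 against 3 counts gave a ratio of 4.30 (1.201 to 23.4, edgeR adjusted p = 0.0614).

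Between miR-22-treated and untreated HCC, Cldn4 was called lower, at a log2 fold change of -1.53 (SE 0.504, edgeR adjusted p = 0.0439). Over the alternatives its adjusted p ranged from 0.0389 to 0.28. It was lost without the filter on low counts (0.176), with glmTreat (0.28), with the 2 groups alone (0.0635) and with the replicate block (0.0717). DESeq2 gave it no adjusted p, and with at least 10 counts in every library it was not tested. It was lost too when any 1 liver other than miR-22-treated HCC replicate 2 was left out: log2 -1.21 (adjusted p = 0.193) without untreated HCC replicate 2, -1.37 (0.165) without miR-22-treated HCC replicate 3, -1.33 (0.13) without its replicate 4, and 0.0645 to 0.0748 without any of the other 5 livers.

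Cldn6, a claudin of embryonic and fetal epithelia (ENSMUSG00000023906, chr17:23898223-23901420, +), had 5, 1 and 2 counts in healthy liver, 37, 51 and 51 in untreated HCC, and 21, 20 and 26 in miR-22-treated HCC. These are 0.314, 0.0630 and 0.1099 CPM, then 1.73, 2.28 and 1.91, then 1.201, 1.28 and 1.24. Untreated HCC was highest and miR-22-treated HCC intermediate, with no overlap. Cldn6 rose 11.9-fold in untreated HCC (log2 3.57, SE 0.463, edgeR adjusted p = 3e-05) and was 7.45-fold above healthy liver in miR-22-treated HCC (log2 2.90, SE 0.486, edgeR adjusted p = 0.000621). Since Cldn6 passed the filter only through HCC livers, neither call is support. Without healthy liver replicate 1, which held 5 of the healthy counts, the log2 values were 4.38 and 3.71, and with the replicate block 4.42 and 3.75. The difference between the HCC groups was -0.67 (95% interval -1.41 to 0.07, edgeR adjusted p = 0.18).

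Cldn7, known from the basolateral side of duct and gut epithelia (ENSMUSG00000018569, chr11:69852648-69858711, +), had 1, 4 and 11 counts in healthy liver, 58, 56 and 82 in untreated HCC, and 14, 24 and 39 in miR-22-treated HCC. In CPM these were 0.0629, 0.252 and 0.604, then 2.72, 2.51 and 3.06, then 0.801, 1.53 and 1.86. The groups did not overlap. The rise in untreated HCC was 8.59-fold (log2 3.10, SE 0.510, edgeR adjusted p = 0.00021), and miR-22-treated HCC was 4.37-fold above healthy liver (log2 2.13, SE 0.539, edgeR adjusted p = 0.00832). Cldn7 too passed the filter only through HCC livers, so neither call is support. Healthy liver replicate 3 held 11 of the healthy counts, and without it the log2 values were 4.07 and 3.09. With the replicate block they were 2.56 and 1.52, the last not called (adjusted p = 0.0663). Between the HCC groups the log2 difference was -0.98 (95% interval -1.88 to -0.07, edgeR adjusted p = 0.11).

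The summed markers of bile ducts stood in the same order of groups as these 3 genes. The summed level of 12 biliary and ductal markers was 118 to 122 CPM in healthy liver, 1724 to 2915 with miR-22 treatment and 3565 to 6578 in untreated HCC, and most of the HCC level was Spp1 (4620 CPM in untreated HCC on average). Of the 11 that could be tested, 8 rose and 0 fell in untreated HCC, beside 40.8% of all genes, with a median log2 fold change of 2.33. Cftr, 1 of the 8, was above the filter in no healthy liver and had to differ. In miR-22-treated against untreated HCC 6 fell, Cftr among them, and 0 rose, beside 13.8%, with a median of -0.88. Krt19, a duct keratin, was at 2.15, 3.96 and 3.86 CPM in healthy liver, untreated HCC and miR-22-treated HCC, and passed no test between healthy liver and untreated HCC (edgeR adjusted p = 0.151). Muc1 and Slc4a2 were not called there either. Krt7, the other keratin of the list, was at 0.765, 2.44 and 1.31 CPM and was called higher in untreated HCC (log2 1.67, edgeR adjusted p = 0.00239). The part of duct cells in the levels of Cldn4, Cldn6 and Cldn7 was not tested. The 3 genes summed to 0.378 to 0.769 CPM in healthy liver, 2.40 to 3.28 with miR-22 treatment and 5.37 to 5.60 in untreated HCC. Within untreated HCC the livers stood in reverse order: replicate 3 was highest for the summed markers (6578 CPM) and lowest for the 3 genes (5.37 CPM).

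**Figure D2:**
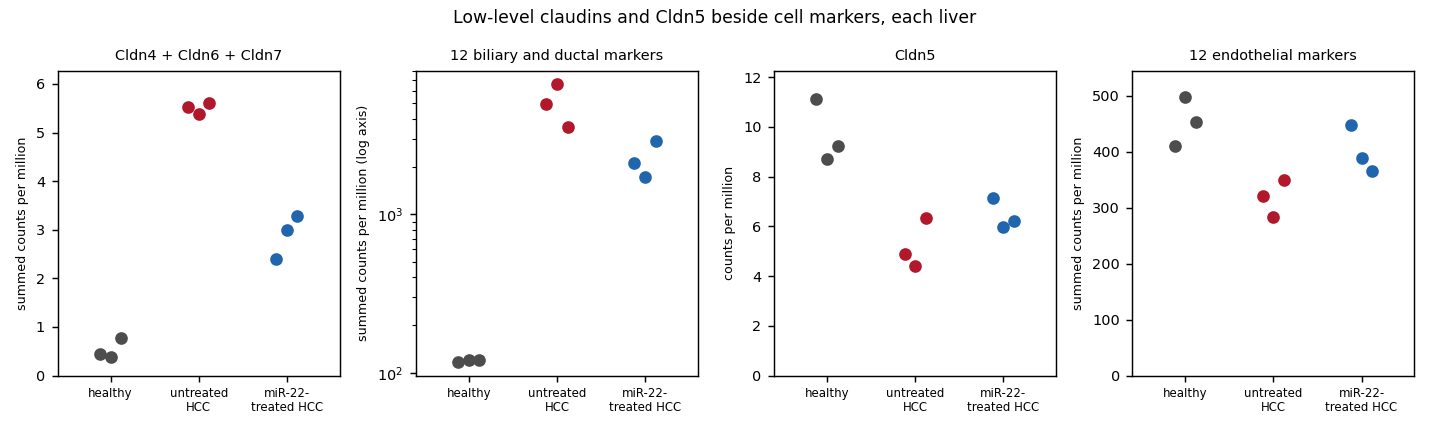
Summed level of Cldn4, Cldn6 and Cldn7, of 12 biliary and ductal markers (log axis), of Cldn5 and of 12 endothelial markers (vertical axes, CPM) in each liver by group (horizontal axis), 1 point per liver. Untreated HCC is highest in both left panels, and the healthy livers are highest for Cldn5.

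The remaining 3 genes were expressed in every liver and passed no test. Cldn1, a sealing claudin (ENSMUSG00000022512, chr16:26175392-26190596, -), was at 100.2, 75.7 and 80.3 CPM in healthy liver, 94.5, 64.3 and 104 in untreated HCC, and 111, 92.2 and 82.7 in miR-22-treated HCC. All 3 groups overlapped. The difference between untreated HCC and healthy liver was 0.04 on the log2 scale, with a 95% interval from -0.33 to 0.41 (edgeR adjusted p = 0.869), and that between the HCC groups 0.12 (-0.25 to 0.49, adjusted p = 0.656). In miR-22-treated HCC against healthy liver it was 0.16 (edgeR adjusted p = 0.507).

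Cldn3, the sealing claudin that led all groups per kb (ENSMUSG00000070473, chr5:135015068-135016326, +), was at 90.5, 71.2 and 70.1 CPM in healthy liver. Untreated HCC had 77.8, 81.9 and 89.3 CPM and miR-22-treated HCC 77.7, 55.9 and 71.7. The miR-22-treated livers were all below the untreated ones, though the closest pair was nearly level, and the log2 difference of -0.28 (95% interval -0.56 to 0.00) did not pass (edgeR adjusted p = 0.145). Against healthy liver the untreated value was 0.10 (-0.18 to 0.39, edgeR adjusted p = 0.518), and the miR-22-treated value -0.17 (adjusted p = 0.326). Cldn3 lies wholly inside Wbscr25 on the opposite strand. The libraries keep no strand, and Wbscr25 was at 0.0839 to 0.223 CPM in the group means.

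Cldn14, whose loss causes deafness in mouse and human (ENSMUSG00000047109, chr16:93715915-93809715, -), was at 22.1, 16.4 and 17.7 CPM in healthy liver, 17.4, 19.2 and 18.7 in untreated HCC, and 18.0, 17.0 and 13.6 in miR-22-treated HCC. The groups overlapped in each comparison. Its log2 differences were -0.03 (95% interval -0.33 to 0.27, edgeR adjusted p = 0.891) for untreated HCC against healthy liver and -0.19 (-0.49 to 0.11, adjusted p = 0.346) between the HCC groups. Against healthy liver, miR-22-treated HCC was at -0.22 (edgeR adjusted p = 0.248).

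Between miR-22-treated and untreated HCC, 2 of the 10 genes were called, Ocln higher and Cldn4 lower, beside 13.8% of all genes (8.32% higher and 5.47% lower). Cldn4 was above the filter in the untreated HCC livers alone, so it had to differ here too and its call is no support. The median log2 fold change of the 10 was -0.24 and that of all genes 0.00. Cldn2, Cldn3, Cldn6, Cldn7 and Cldn12 did not overlap between these groups without being called, and across all genes tested 39.3% did not overlap. Between miR-22-treated HCC and healthy liver 2 were called, Cldn6 and Cldn7, both higher, beside 24.0% of all genes (16.9% higher and 7.05% lower), and both had passed the filter only through HCC livers. The median was 0.07 for the 10 and 0.02 for all genes. Not overlapping were 65.3% of all genes between untreated HCC and healthy liver and 48.8% between miR-22-treated HCC and healthy liver. These comparisons share livers pairwise, so their counts are not independent.

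**Figure D3:**
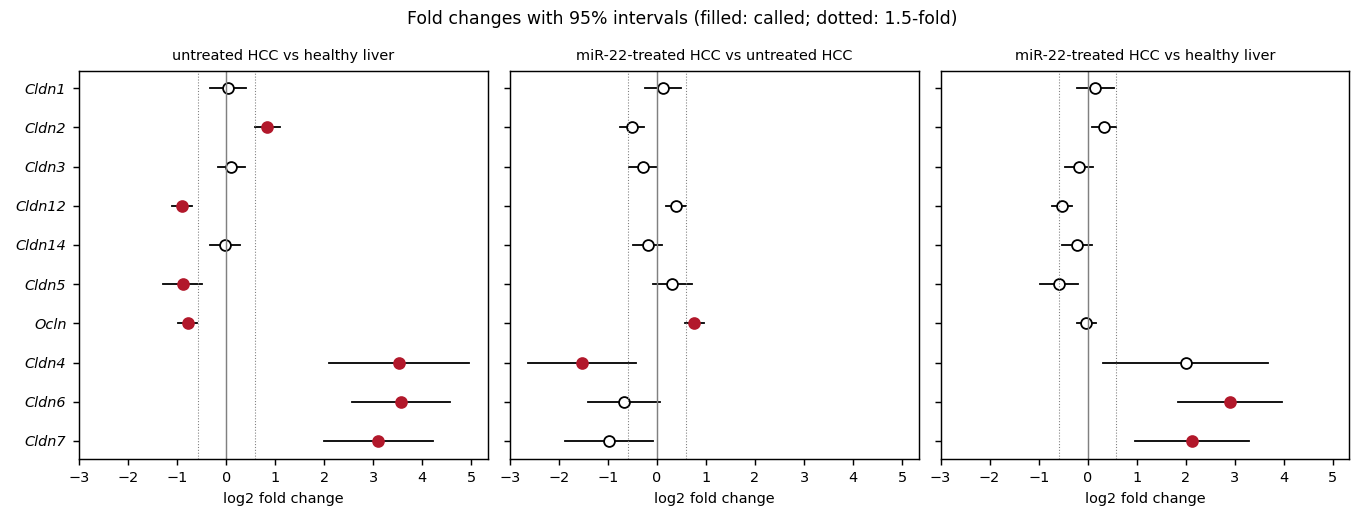
Log2 fold change (horizontal axis) of each of the 10 genes (vertical axis) in the 3 comparisons, with its 95% interval. Filled points were called, and dotted lines mark 1.5-fold. Ocln lies at -0.79, 0.76 and -0.03 from left to right.

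Summing the 9 claudins per kb gave 144 to 178 CPM per kb in healthy liver, 139 to 167 with miR-22 treatment and 167 to 178 in untreated HCC. Within that sum, Cldn2 took 17.3% ± 1.33 (SD, n = 3) in healthy liver, 28.2% ± 4.15 in untreated HCC and 22.7% ± 0.679 in miR-22-treated HCC. The range was 16.5% to 18.9%, 23.4% to 30.7% and 22.2% to 23.5%, so the HCC groups overlapped only at untreated HCC replicate 4, and healthy liver lay below both. Cldn12 took 14.3% ± 1.63, 6.87% ± 0.257 and 10.4% ± 1.79. Cldn3 held 39.0% ± 1.67, 38.0% ± 2.34 and 35.9% ± 3.57, with overlap between all groups. Cldn4, Cldn6 and Cldn7 reached 0.242%, 0.704% and 1.19% in untreated HCC. Shares in a sum are not independent, since a rise of one lowers the others.

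**Figure D4:**
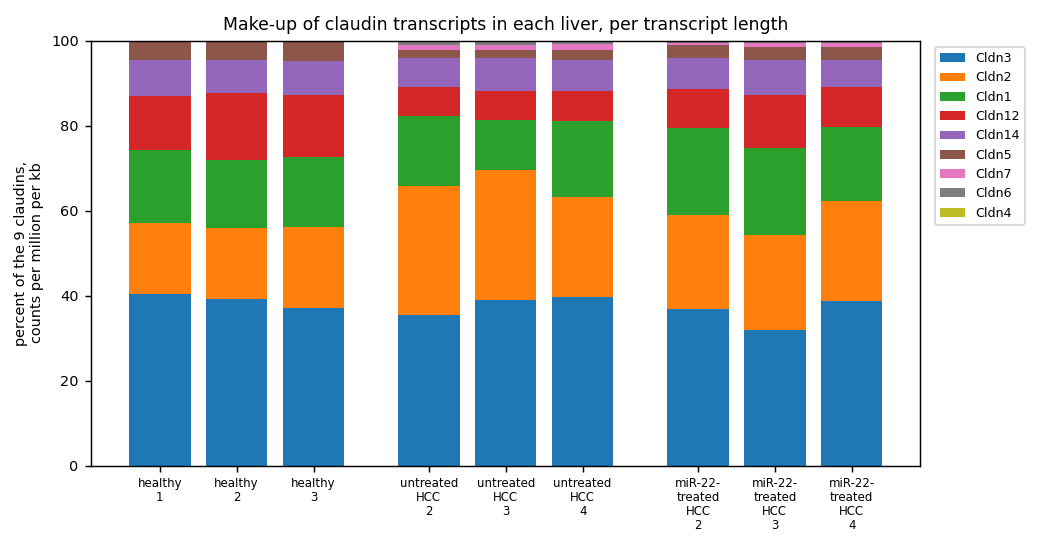
Share of each of the 9 claudins in their summed level (vertical axis, percent of CPM per kb) in each liver (horizontal axis, by group and replicate). Cldn3 holds between 31.9% and 40.5% and Cldn2 widens from 17.3% on average in healthy liver to 28.2% in untreated HCC.

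Of the partners of the claudins, scaffolds, adhesion molecules and polarity proteins among them, 55 genes were found in the table and 40 could be tested. In untreated HCC against healthy liver 12 rose and 2 fell, a share of 35% beside 40.8% of all genes, with a median log2 fold change of 0.22. Cldn10 and Ildr1, among the 12, were above the filter in no healthy liver, so they had to differ. In miR-22-treated against untreated HCC 1 rose and 5 fell, 15% beside 13.8%, with a median of -0.18. Between miR-22-treated HCC and healthy liver 7 rose and 1 fell, 20% beside 24.0%, with a median of 0.11. These shares were near those of all genes.

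Tjp3 (ZO-3), a scaffold beneath the strand, was at 19.1 ± 3.09 CPM in healthy liver, 81.8 ± 4.41 in untreated HCC and 41.7 ± 5.66 in miR-22-treated HCC (SD, n = 3). It rose with HCC (log2 2.10, edgeR adjusted p = 8.41e-08) and was lower with miR-22 (-0.97, adjusted p = 0.000346). Tjp1 (ZO-1), by contrast, was at 87.4, 85.3 and 76.2 CPM and passed neither test (log2 -0.04 and -0.16). It was named after its values were seen.

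Arhgef2 (GEF-H1), a guanine nucleotide exchange factor held at the junction, was at 8.67, 31.5 and 20.7 CPM, with log2 fold changes of 1.86 (edgeR adjusted p = 2.79e-07) and -0.60 (0.00523). Cxadr, the coxsackievirus and adenovirus receptor, was at 125, 285 and 223 CPM. It rose in untreated HCC (log2 1.19, edgeR adjusted p = 6.31e-07), and its difference between the HCC groups was -0.35 (0.017), under the fold threshold. Ildr2, an angulin, went the other way, from 72.4 ± 7.95 CPM in healthy liver to 12.8 ± 4.202 in untreated HCC and 29.5 ± 6.03 in miR-22-treated HCC (log2 -2.49 and 1.19, edgeR adjusted p = 8.03e-07 and 0.00164).

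**Figure D5:**
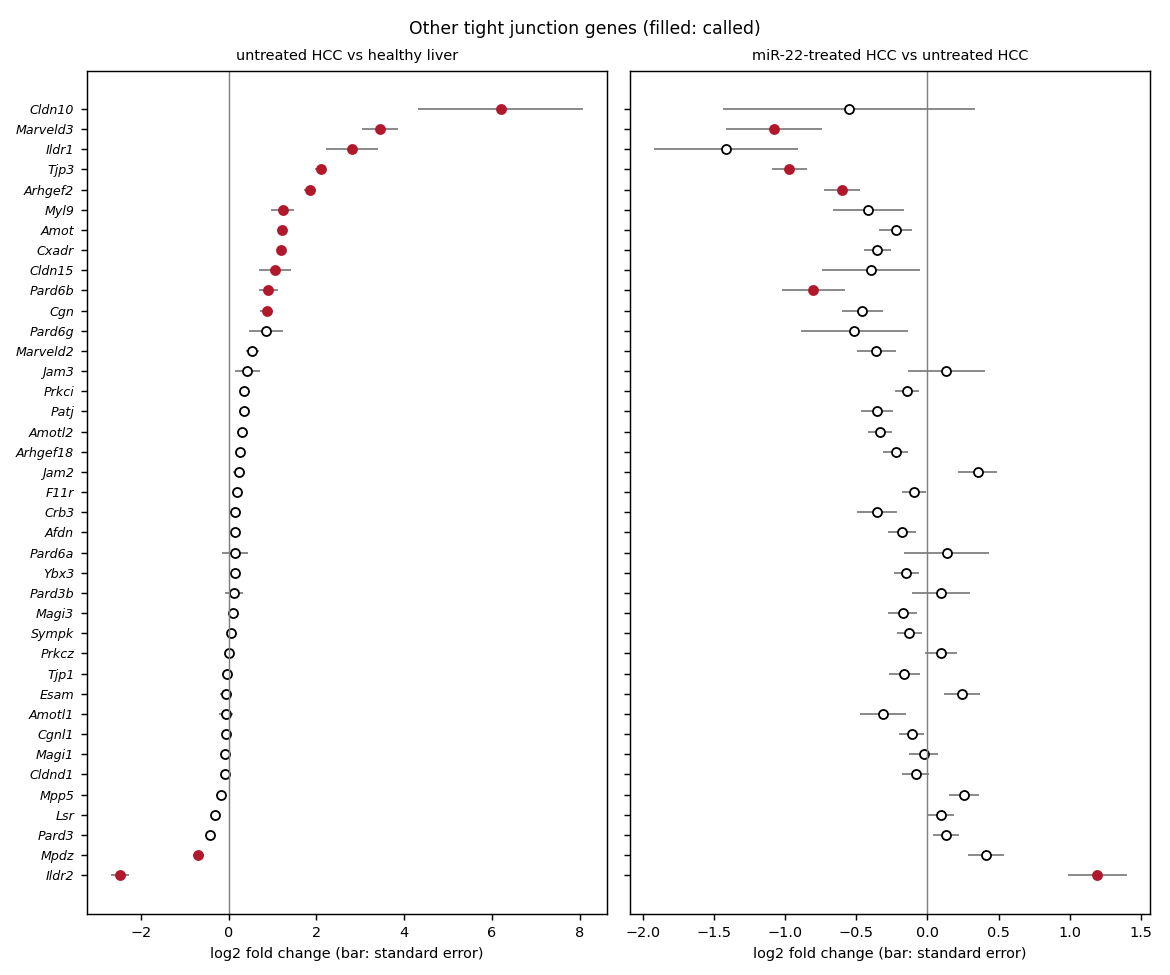
Log2 fold change with its standard error (horizontal axes, of different width) of 39 tested tight junction partners (vertical axis) in untreated HCC against healthy liver and in miR-22-treated against untreated HCC. Filled points were called: 13 on the left and 5 on the right, with Ildr2 the lowest on the left and the highest on the right. A tested partner called in both comparisons is not reported here and is left out of the plot.

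Other claudins were scarce. Cldn13, Cldn16, Cldn17, Cldn19, Cldn22, Cldn24 and Cldn34a had 0 counts in all 9 livers, and Cldn8, Cldn9, Cldn11, Cldn18, Cldn20 and Cldn23 were under the filter. Cldn10, named after its values were seen, had 0, 0 and 0 counts in healthy liver, 15, 13 and 4 in untreated HCC, and 1, 1 and 16 in miR-22-treated HCC. Set against a floor of 3 counts over the healthy group, its ratio was 7.57 in untreated HCC and 5.53 in miR-22-treated HCC. In the latter, replicate 4 carried nearly all counts. These ratios take no account of error in the HCC counts. Against healthy liver, miR-22-treated HCC was not called (edgeR adjusted p = 0.0513). Cldn15 rose in untreated HCC (0.608 to 1.26 CPM, log2 1.06, edgeR adjusted p = 0.0267), and was chosen likewise.

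The adherens, desmosome and gap junction genes, 16 tested, gave 4 that rose and 2 that fell in untreated HCC (37.5% beside 40.8%, median 0.42). Between miR-22-treated and untreated HCC 1 rose and 1 fell (12.5% beside 13.8%, median -0.18), and between miR-22-treated HCC and healthy liver 2 rose and 1 fell (18.8% beside 24.0%, median 0.14). E-cadherin (Cdh1) rose from 70.9 ± 6.05 CPM to 189 ± 10.6 in untreated HCC (log2 1.42, edgeR adjusted p = 1.3e-07) and was at 133 ± 4.99 in miR-22-treated HCC (-0.51, adjusted p = 0.00215, under the fold threshold). Nectin2, an adhesion molecule, and desmoplakin (Dsp) rose by log2 0.95 and 0.82. The gap junction gene Gjb2 (connexin 26) fell by 1.30, from 449 ± 37.7 to 182 ± 20.9 CPM, and was at 259 ± 43.9 in miR-22-treated HCC. With miR-22, plakoglobin (Jup) was lower by log2 -0.65 (edgeR adjusted p = 0.00109) and desmocollin Dsc2 higher by 0.61 (0.00154), both called. In that comparison Nectin2 was at -0.57 (edgeR adjusted p = 0.00146), short of 1.5-fold.

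Of 9 transcription factors that repress or maintain epithelial junction genes, 5 passed the filter. Snai2 (Slug), a repressor, fell in untreated HCC (6.96 ± 1.95 to 3.04 ± 0.207 CPM, log2 -1.19, edgeR adjusted p = 0.00381) and was higher in miR-22-treated HCC (6.94 ± 2.91, log2 1.19, adjusted p = 0.0116). Snai1 (Snail), at 0.880 CPM in healthy liver, rose in untreated HCC to 2.04 (log2 1.18, edgeR adjusted p = 0.0263). Grhl2, an activator of claudin genes in epithelia, rose from 0.0995 to 0.517 CPM (log2 2.31, edgeR adjusted p = 0.0107). With 0 to 3 counts in each healthy liver it passed the filter only through HCC livers, so it had to differ and its call is no support. Zeb1 and Zeb2, at 23.4 and 27.0 CPM in healthy liver, passed no test in these 2 comparisons (log2 -0.25 to 0.15). Between miR-22-treated HCC and healthy liver 1 of the 5 was called higher, again Grhl2, with the same limit.

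The counts of the other marker lists stand beside 40.8% of all genes called in untreated HCC against healthy liver and 13.8% with miR-22 against untreated HCC. Of 10 pericentral genes 7 fell and of 10 periportal genes 7 fell and 1 (Cdh1) rose in untreated HCC, and with miR-22 3 and 6 of them rose. Of 10 hepatocyte markers 8 fell and 1 rose in untreated HCC, and 4 rose with miR-22. These lists moved in the same livers as Ocln and Cldn12, and their part in those results was not tested. Among other cells, 6 of 10 stellate and fibroblast markers rose and 2 fell in untreated HCC, and 2 rose and 2 fell with miR-22. Of 9 macrophage and leukocyte markers 4 rose in untreated HCC, S100a8 among them through HCC livers alone, and 0 passed edgeR's test with miR-22 (1 at an unadjusted p under 0.05). Of 5 intestinal markers 3 rose and 1 fell in untreated HCC, 2 of the rises (Krt20 and Cdh17) being genes above the filter in HCC livers alone, while Cdx2 and Alpi had 0 counts. Of 5 acinar markers 0 passed in untreated HCC (1 at an unadjusted p under 0.05), and with miR-22 1 was called higher, Cela2a, at 21.4 ± 35.9 CPM (SD, n = 3), in the group whose acinar RNA was mostly in replicate 2.

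Some reads can be shared with other genes. Cldn7 overlaps Elp5 on the opposite strand by 543 bases, and Elp5 was at 19.4, 20.1 and 17.5 CPM, with a log2 fold change of 0.05 in untreated HCC. Cldn6 lies 138 bases from Cldn9 and shares 7 words of 31 bases with it (0.44% of its words), and Cldn9 was under the filter. Cldn3 and Cldn4, neighbors on the same chromosome, share 5 such words. Ocln shares such words with 1140 other genes, where each other member shares them with 0 or 1, and at most 66 of its 6640 words (0.994%) with any 1 gene. How the counting divided reads from these stretches was not tested.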

How the data were processed

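Whole-liver RNA of 9 mice was sequenced as paired-end, non-directional libraries. Per the labels and methods, the authors checked reads with FastQC 0.11.7, quantified transcripts with Salmon (GRCm39), summed them to genes with tximport and tested with DESeq2 1.18. The deposited values used here are counts per gene; the authors' normalized table was not used. Counts were scaled by TMM, filtered with filterByExpr (0.545 CPM in at least 3 livers) and tested two-sided with edgeR 4.0.16 (R 4.3.3, quasi-likelihood, 1 fit to all 9 livers, Benjamini-Hochberg over 15717 genes). Calls needed an adjusted p under 0.05 and over 1.5-fold. DESeq2 1.42.0 served as an alternative. The fit was tested on simulated data. Transcript lengths, positions and UTRs were those of GENCODE M39, and matplotlib 3.10.9 drew the plots.

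All 10 members were named. Partners and adherens or gap junction genes were named by the 4 smallest p values in untreated HCC against healthy liver and in miR-22-treated against untreated HCC, and transcription factors when tested. Some genes that the rule names are not reported here. Marker lists were hepatocyte, biliary, endothelial, stellate, macrophage, acinar, intestinal, pericentral and periportal. The members and lists were chosen with earlier results of these data known. Replicate counts within groups differed beyond sampling noise (chi-square per degree of freedom 6.59 to 31.3). P-values measure the spread between these livers. Alternatives were other scaling, filters, thresholds, the replicate block, 2 groups alone and each liver left out.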

Additional observations from a re-analysis of the deposited data

How the results depend on the processing

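With miR-22 against untreated HCC, the 2 called genes of the 10 became 1 with DESeq2, without the filter, with at least 10 counts in every library, with the replicate block and with the 2 groups alone, 4 with no fold threshold and 0 with glmTreat (edgeR, 2 at an unadjusted p under 0.05), and ranged from 1 to 2 when single livers were left out. In untreated HCC against healthy liver the 7 became 4 with at least 10 counts in every library, where Cldn4, Cldn6 and Cldn7 were not tested, and were 6 to 7 otherwise. In miR-22-treated HCC against healthy liver the 2 became 0 with at least 10 counts (edgeR, 3 at an unadjusted p under 0.05), 5 with no fold threshold and 1 with the replicate block. Same-numbered livers of the HCC groups correlated at -0.121 to -0.235 in their deviations, so their numbers were not taken as pairs (healthy livers were not compared). The 6 called partners with miR-22 became 11 with no fold threshold and 2 with glmTreat, and ranged from 3 to 8 over left-out livers, lowest without untreated HCC replicate 2 or 3 or miR-22-treated HCC replicate 3. Partner counts against healthy liver stayed within 10 to 21 for untreated and 6 to 11 for miR-22-treated HCC. No called member changed direction. Depth limits Cldn4, Cldn6 and Cldn7, with 1 to 11 counts in each healthy liver.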

Other observations

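Genes that followed each of the 10 most closely over the 9 livers were found by Pearson's r of log2(CPM + 0.1) among all genes tested, as a description of livers that differ by group. For Cldn2 these were Exoc2 (r = 0.991), a subunit of the exocyst, and Epn2 (0.985), an endocytic adaptor. Cldn12 was followed by the mitochondrial gene mt-Nd1 (0.997) and by Pccb (0.995), a subunit of propionyl-CoA carboxylase. Ocln was closest to Gm50237 (0.987) and AW549877 (0.983). For Cldn5 they were Sirt7 (0.987) and Pth1r (0.986), for Cldn6 Gm50321 (0.994) and Cacnb3 (0.994), for Cldn7 Scmh1 (0.989) and Apbb1 (0.986), and for Cldn4 Spsb1 (0.988) and Kif3b (0.986). Among the 3 genes that passed no test, r was lower for the closest gene of Cldn1 (D6Wsu163e, 0.906; Usp38, 0.888) and Cldn14 (Thpo, 0.943; Pigb, 0.937), and Cldn3 had Tcf3 at 0.966 and Pik3c2b at 0.922. A gene that differs by group finds close followers more easily here, so the lower r adds nothing to the tests above.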
